A study of Homo sapiens with 30 samples.

Results

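The genes described here are of the HIST1 to HIST4 clusters, mostly canonical histone genes, as captured in polyadenylated RNA of human cancer cell lines. GENCODE gives transcripts of a pseudogene class for HIST1H2APS1, HIST2H2BA and HIST2H2BC. Every gene whose symbol starts with HIST1H, HIST2H, HIST3H or HIST4H was taken, which gave 69 of the 30373 genes measured. They were 6 H1 linker histone genes, 16 H2A, 20 H2B, 13 H3 and 14 H4 genes, with 55 in HIST1, 10 in HIST2, 3 in HIST3 and 1 in HIST4. A group mean of 1 FPKM (the fragments of a gene relative to its transcript length and to the fragments of the library) or more in at least 1 of 10 groups was reached by 30 of the 69, and 39 stayed under it in every group.

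The study exposed cell lines to ML-792, which the labels call ML00754792. It inhibits SAE, the enzyme that activates the small protein SUMO before it is attached to other proteins. At 16 h, 6 groups of 3 libraries each were the breast cancer line MDAMB231 and the colorectal cancer lines COLO205 and HCT116 in ML-792 at 500 nM, each with its vehicle group in DMSO at 0.01%. At 3.5 h, 4 groups of 3 libraries each were all HCT116. Heat-shocked cells in ML-792 or DMSO had 2 h of agent, 0.5 h at 43 °C and 1 h of recovery at 37 °C, all in the agent, and unheated cells in ML-792 or DMSO had 3.5 h of agent alone. The labels' protocols call the replicates biological triplicates, and each line is a single established culture line.

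Canonical histone genes supply the proteins that package newly copied DNA, and their transcription is highest in S phase. Their usual mRNA carries no poly(A) tail. It ends just after a short stem-loop that the stem-loop binding protein SLBP holds, and it is degraded when DNA synthesis stops. Some canonical genes also make a polyadenylated transcript by reading past the stem-loop to a poly(A) signal, which is known from cells that leave the cell cycle. The libraries were made from RNA selected by poly(A) tail, so the values given here are for the tailed transcripts and for whatever untailed RNA was carried along, and not for the total histone mRNA of a cell.

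The stem-loop was found in the GENCODE v29 transcripts of 26 members and in 177 of 57133 genes (0.310%). Its 16 letters took 4 forms, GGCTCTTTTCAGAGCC in 14 members, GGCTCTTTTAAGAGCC and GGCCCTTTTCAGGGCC in 5 each, and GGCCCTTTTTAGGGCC in 2. The transcripts of 19 members continued for at least 100 bases after it, and 11 of these 19 reached 1 FPKM, against 19 of the other 50 members. The 7 stretches of 30 bases given here are from members whose levels are described in the next paragraphs, 5′ to 3′ in the sense of the transcript, with the stem-loop in capitals.
HIST1H2AC (chromosome 6): acccaaaGGCTCTTTTCAGAGCCcccctac
HIST1H2BD (chromosome 6): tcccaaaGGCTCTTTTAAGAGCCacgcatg
HIST1H4H (chromosome 6): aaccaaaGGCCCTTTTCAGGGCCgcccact
HIST2H2AA4 (chromosome 1): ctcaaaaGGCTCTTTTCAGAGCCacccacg
HIST2H2BE (chromosome 1): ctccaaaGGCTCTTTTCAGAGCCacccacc
HIST2H4A (chromosome 1): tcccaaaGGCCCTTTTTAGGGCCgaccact
HIST3H2A (chromosome 1): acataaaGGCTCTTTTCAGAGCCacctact
The transcript continued for 1729 bases past the stem-loop in HIST2H2BE, 1114 in HIST1H2AC, 390 in HIST3H2A, 194 in HIST2H4A, 39 in HIST1H2BD and 35 in HIST2H2AA4. The annotated transcripts of HIST1H2BK and HIST1H1C, the 2 members with the highest levels, are 381 and 642 bases long, the length of their coding sequences, so a stem-loop past the coding end could not be found in them. A match describes these letters and not a measured 3′ end.

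Upstream sequences are shown for the 4 members with the highest levels that have a RefSeq start on chromosome 6. Each window has 300 bases, 250 before to 50 after the start (RefSeq, GRCh38.p14), read 5′ to 3′ on the strand of the gene, with matches on either strand in capitals. The motifs were the octamer ATTTGCAT found in H2A and H2B promoters, the CCAAT box, the TATA box written as TATAAA, and the AAACACA box of H1 promoters.
HIST1H2BK (chr6:27146809-27147108, minus strand): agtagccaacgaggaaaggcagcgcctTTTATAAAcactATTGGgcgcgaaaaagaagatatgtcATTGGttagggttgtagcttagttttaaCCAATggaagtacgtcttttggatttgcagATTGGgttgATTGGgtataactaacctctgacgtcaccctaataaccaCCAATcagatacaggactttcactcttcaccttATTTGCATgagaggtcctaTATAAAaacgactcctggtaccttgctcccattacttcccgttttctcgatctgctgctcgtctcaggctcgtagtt
HIST1H2BD (chr6:26157871-26158170, plus strand): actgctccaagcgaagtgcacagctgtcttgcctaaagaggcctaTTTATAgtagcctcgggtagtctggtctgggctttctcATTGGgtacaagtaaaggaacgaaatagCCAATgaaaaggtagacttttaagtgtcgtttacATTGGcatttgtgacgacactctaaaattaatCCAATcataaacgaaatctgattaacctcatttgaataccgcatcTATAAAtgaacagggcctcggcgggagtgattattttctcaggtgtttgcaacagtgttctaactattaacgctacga
HIST1H1C (chr6:26056421-26056720, minus strand): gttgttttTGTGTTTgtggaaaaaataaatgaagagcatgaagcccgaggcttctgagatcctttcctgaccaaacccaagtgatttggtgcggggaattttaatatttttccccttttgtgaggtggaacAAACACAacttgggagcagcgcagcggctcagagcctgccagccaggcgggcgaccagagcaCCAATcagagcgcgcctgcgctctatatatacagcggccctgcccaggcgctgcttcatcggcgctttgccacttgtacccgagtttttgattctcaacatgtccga
HIST1H2AC (chr6:26123922-26124221, plus strand): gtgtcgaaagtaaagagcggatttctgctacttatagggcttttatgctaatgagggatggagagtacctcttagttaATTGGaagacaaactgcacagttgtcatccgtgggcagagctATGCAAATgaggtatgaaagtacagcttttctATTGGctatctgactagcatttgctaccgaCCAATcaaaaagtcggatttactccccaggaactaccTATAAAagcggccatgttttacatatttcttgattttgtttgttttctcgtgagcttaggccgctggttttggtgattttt
HIST1H2BK and HIST1H2BD each have 2 windows in the table, of which the first is shown. Of the 61 members with a window, the octamer was found in 14 of 18 H2B, 11 of 14 H2A, 1 of 11 H3 and none of 6 H1 or 12 H4 genes, against 1.77% of all 35116 windows. The H1 box was in 6 of 6 H1 windows and in 8 of the 61 in all, against 5.64% of all windows. CCAAT was in 52 of 61 (34.6% of all windows) and TATAAA in 41 of 61 (11.5%). In 11 pairs of neighbours read in opposite directions the windows overlapped, HIST1H2BC and HIST1H2AC among them.

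Depth, estimated from the steps of low values, was 27.4 to 35.2 M (mega) fragments in libraries of 16 h, 37.2 to 55.7 M in heat-shocked libraries and 48.5 to 73.4 M in unheated libraries of 3.5 h. At 16 h, 1 FPKM over 500 transcript bases is then 13.7 to 17.6 fragments, so members near 1 FPKM rest on few fragments. In 4 of the 12 libraries of 3.5 h the estimate was 1.99 to 3.92 times the depth that the library's own most frequent step would give, so the scale of those libraries is uncertain. The lowest correlation between replicates over all genes was 0.996, and no libraries were identical. The labelled lines matched some of their markers: the mesenchymal VIM was at 769 to 931 FPKM in MDAMB231, against 0 to 0.0148 in COLO205 and 0.819 to 4.27 in HCT116. The intestinal VIL1 was at 111 to 132 FPKM in COLO205 but at most 0.157 in HCT116. The intestinal CDX2 was at 4.60 to 6.63 FPKM in HCT116, 0.267 to 1.07 FPKM in COLO205 and 0 in MDAMB231. ZEB1, FN1, AXL and CAV1 were also highest in MDAMB231, and EPCAM, CDH1, KRT8 and KRT18 lowest. Other markers did not follow the labels. TWIST1 was 0 in MDAMB231 but 0.150 to 0.960 FPKM in HCT116. SPARC reached 0.381 FPKM in MDAMB231 and 0.664 FPKM in HCT116, and CD44 overlapped between them. KRT20 stayed under 1 FPKM in every line, and CEACAM5 and LGALS4 reached 0.0275 and 0.570 FPKM in HCT116.

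Levels were concentrated in a few members. Only HIST1H1C, HIST1H2AC, HIST2H2AA4, HIST1H2BD, HIST1H2BK and HIST2H2BC had a mean of 1 FPKM or more in all 10 groups. Of these, HIST2H2BC has GENCODE transcripts that include a pseudogene class. By family, 3 of 6 H1, 7 of 16 H2A, 12 of 20 H2B, 4 of 13 H3 and 4 of 14 H4 genes reached 1 FPKM in some group. By cluster, 22 HIST1, 7 HIST2, 1 HIST3 and no HIST4 genes did. Single libraries held 6 to 25 members at that level. The count was 43 at 0.5 FPKM, 10 at 5 FPKM and 6 at 10 FPKM. Just inside the threshold was HIST1H2BN, with a highest group mean of 1.13 FPKM, and just outside were HIST1H3H at 0.993 and HIST1H3B at 0.988 FPKM. In all 30 libraries, 6 members were listed at 0, namely HIST1H2AA, HIST1H2APS1, HIST1H2BA, HIST1H3E, HIST1H4F and HIST1H4G.

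**Figure D1:**
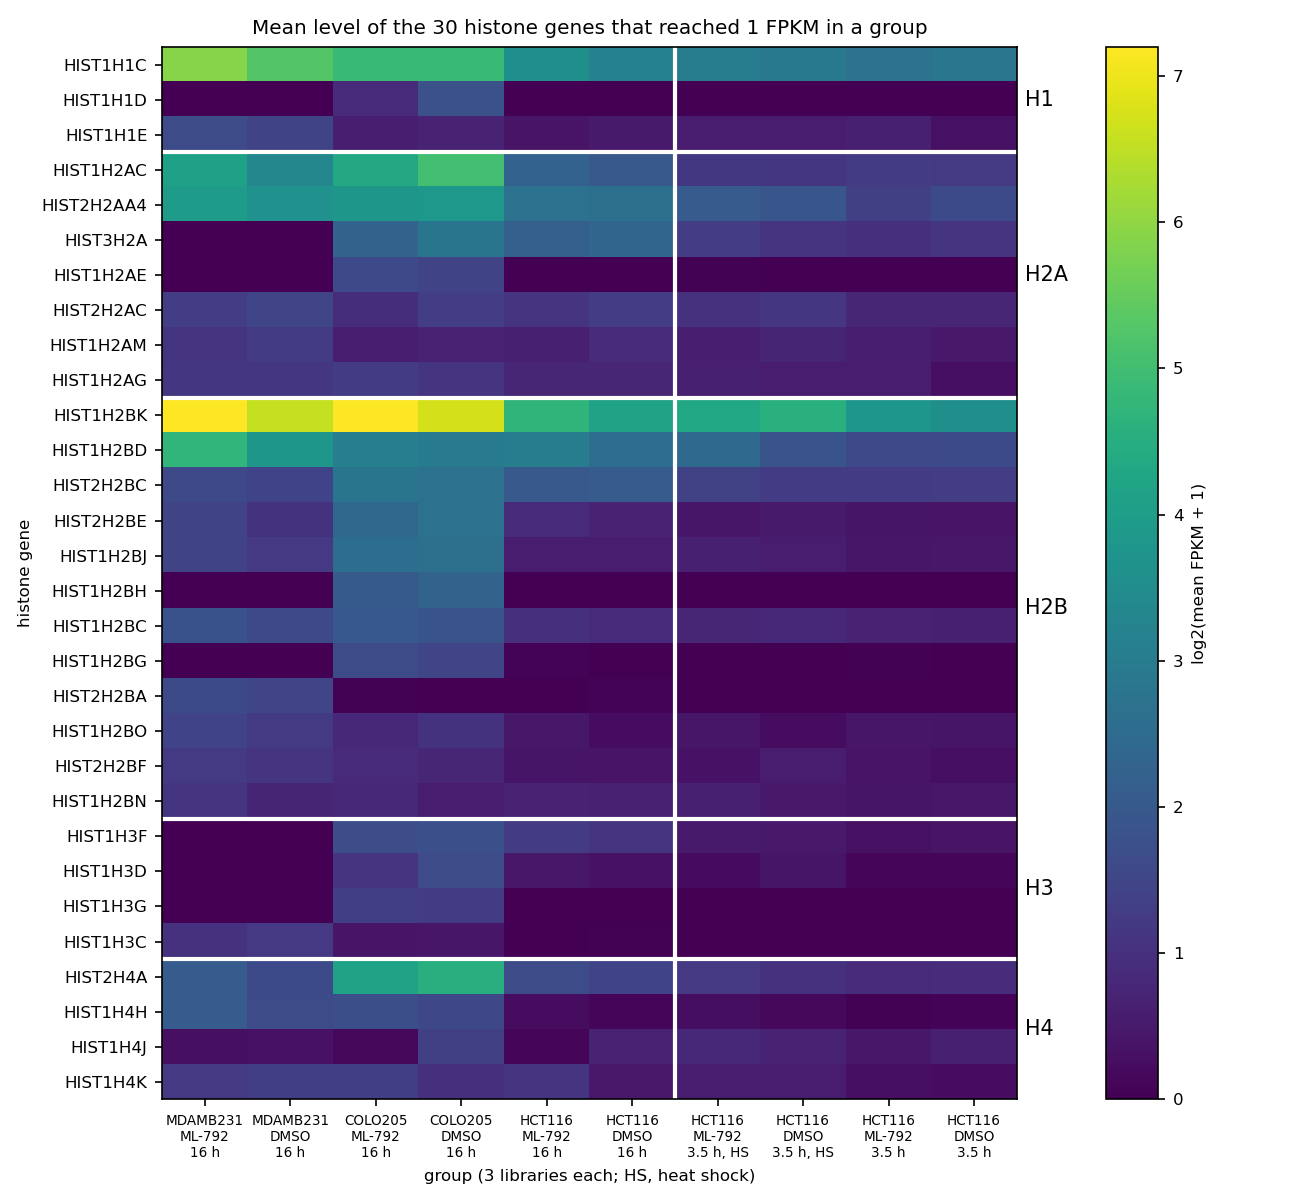
Group mean level, as log2(FPKM + 1), of the 30 members that reached 1 FPKM in some group (down the page, by family) in the 10 groups (across, ML-792 left of DMSO). HIST1H2BK is the brightest row in every group, and the columns of MDAMB231 and COLO205 hold more members above 1 FPKM than those of HCT116.

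Summed over the 69 members, the level was 298 ± 12.2 FPKM in MDAMB231 with ML-792 and 197 ± 7.36 FPKM with DMSO (SD, n = 3 each). The sum was 282 ± 26.5 FPKM in COLO205 with ML-792 and 269 ± 8.20 FPKM with DMSO, and 75.1 ± 5.45 FPKM in HCT116 with ML-792 and 60.7 ± 2.58 FPKM with DMSO at 16 h (SD, n = 3 each). The libraries of the 2 treatments did not overlap in MDAMB231 or HCT116, with ratios of 1.52 and 1.24, and overlapped in COLO205, where the ratio was 1.05. In HCT116 of 3.5 h the sum was 52.8 ± 1.38 FPKM with heat shock in ML-792, 51.7 ± 6.47 FPKM with heat shock in DMSO, 36.0 ± 3.69 FPKM in unheated ML-792 cells and 34.4 ± 2.54 FPKM in unheated DMSO cells (SD, n = 3 each). These sums were 0.0058% to 0.0646% of all FPKM in a library, and H2B genes made up 46.8% to 64.0% of them. HIST1H2BK alone made up 51.6% of the sum in COLO205 with ML-792 and 39.5% with DMSO, 49.0% and 47.6% in MDAMB231, and 33.7% and 27.5% in HCT116 of 16 h. Without HIST1H2BK the sum was 137 ± 23.3 FPKM in COLO205 with ML-792 and 163 ± 5.18 FPKM with DMSO (SD, n = 3 each), so the direction of the COLO205 difference turned with that gene.

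**Figure D2:**
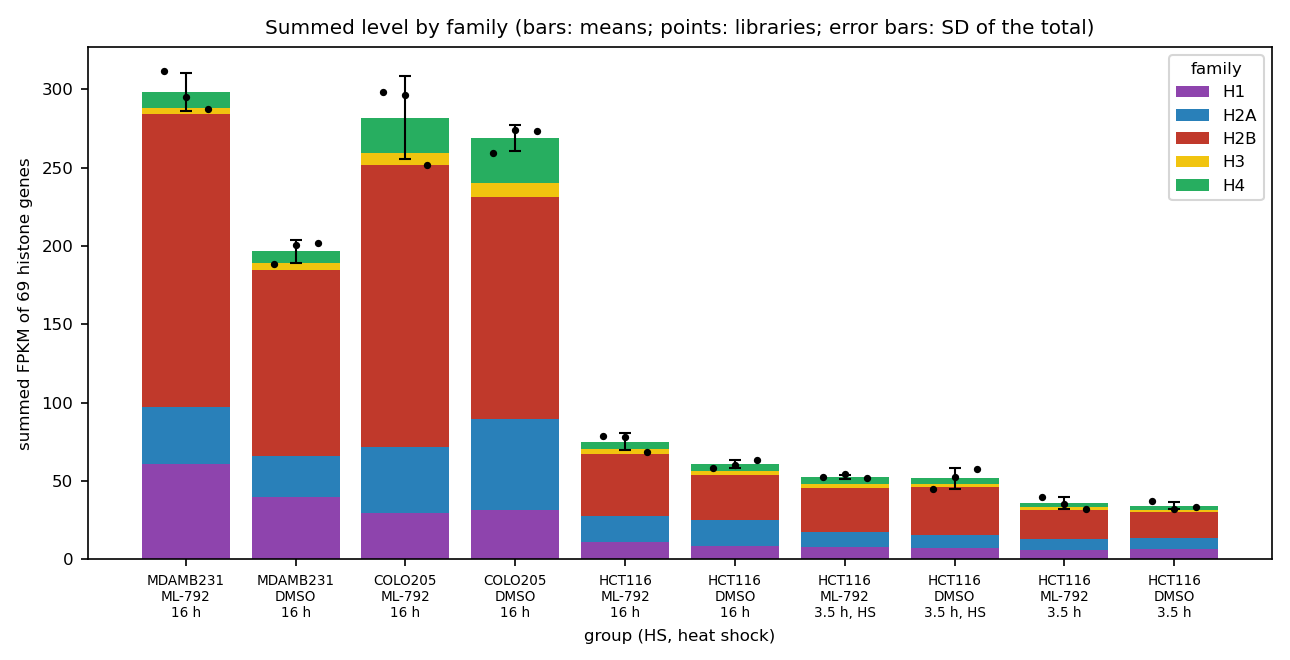
Summed FPKM of the H1, H2A, H2B, H3 and H4 members in each group (stacked bars, from 0), with points for the total of each library and error bars for the SD over 3 libraries. The H2B block is the largest in every group, and the totals of MDAMB231 and COLO205 stand above those of HCT116.

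HIST1H1C, a linker histone gene, was higher with ML-792 in MDAMB231 and HCT116. Its level was 59.9, 56.3 and 59.3 FPKM in the ML-792 libraries of MDAMB231, against 36.7, 38.2 and 38.7 FPKM in the DMSO libraries. In HCT116 of 16 h it was 11.9, 10.95 and 10.3 FPKM with ML-792, against 8.00, 7.84 and 8.16 FPKM with DMSO. In COLO205 it was 34.0, 28.5 and 20.8 FPKM with ML-792, against 27.01, 27.7 and 30.7 FPKM with DMSO. The treatments were apart in MDAMB231 and HCT116, and in COLO205 the ML-792 libraries lay on both sides of the DMSO libraries.

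HIST1H2AC and HIST2H2AA4 encode H2A. HIST1H2AC was at 16.9, 15.9 and 15.9 FPKM with ML-792 in MDAMB231, against 8.90, 9.37 and 8.95 FPKM with DMSO. In COLO205 it was at 24.0, 21.3 and 12.2 FPKM with ML-792, against 33.3, 31.6 and 30.6 FPKM with DMSO, so the groups were apart in both lines, in opposite directions. In HCT116 of 16 h it was at 4.12, 4.11 and 3.30 FPKM with ML-792, against 2.80, 3.11 and 3.18 FPKM with DMSO. HIST2H2AA4 was at 17.1, 14.9 and 12.3 FPKM in MDAMB231 with ML-792, against 10.5, 11.9 and 11.7 FPKM with DMSO. It was at 13.4, 13.6 and 11.9 FPKM in COLO205 with ML-792, against 12.3, 13.2 and 14.3 FPKM with DMSO. In HCT116 of 16 h its libraries held 6.60, 5.78 and 4.45 FPKM with ML-792, against 5.003, 6.17 and 4.81 FPKM with DMSO. HIST2H2AA4 was not called in any line at 16 h, and its groups overlapped in COLO205 and HCT116.

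HIST1H2BK and HIST1H2BD encode H2B. HIST1H2BK, the member with the highest level in every group, was at 150, 145 and 143 FPKM with ML-792 in MDAMB231, against 91.2, 95.7 and 93.9 FPKM with DMSO. In COLO205 it was at 145, 149 and 141 FPKM with ML-792, against 103, 108 and 108 FPKM with DMSO. In HCT116 of 16 h it was at 24.8, 26.2 and 24.8 FPKM with ML-792, against 16.1, 16.3 and 17.7 FPKM with DMSO. Every ML-792 library of all 3 lines was above every DMSO library of its line. HIST1H2BD was at 26.9, 26.4 and 23.0 FPKM in MDAMB231 with ML-792, against 12.8, 13.7 and 12.8 FPKM with DMSO. It was at 6.42, 8.18 and 6.63 FPKM in HCT116 of 16 h with ML-792, against 5.56, 5.30 and 4.15 FPKM with DMSO. In COLO205 it was at 8.68, 8.06 and 5.73 FPKM with ML-792, against 6.54, 7.17 and 6.92 FPKM with DMSO, and there the groups overlapped.

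HIST2H4A encodes H4, the most conserved core histone, and was high in COLO205 only among the lines at 16 h. Its COLO205 libraries held 18.5, 19.6 and 11.6 FPKM with ML-792, against 20.1, 22.6 and 22.9 FPKM with DMSO. In MDAMB231 they held 2.98, 2.86 and 4.08 FPKM with ML-792, against 2.02, 1.82 and 2.38 FPKM with DMSO. In HCT116 of 16 h they held 1.97, 2.76 and 1.66 FPKM with ML-792, against 1.86, 1.396 and 1.95 FPKM with DMSO. The treatments were apart in MDAMB231 and COLO205, in opposite directions, and neither difference passed the test across all genes. The third COLO205 library with ML-792 was the lowest of its 3 for 22 of the 30 members.

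**Figure D3:**
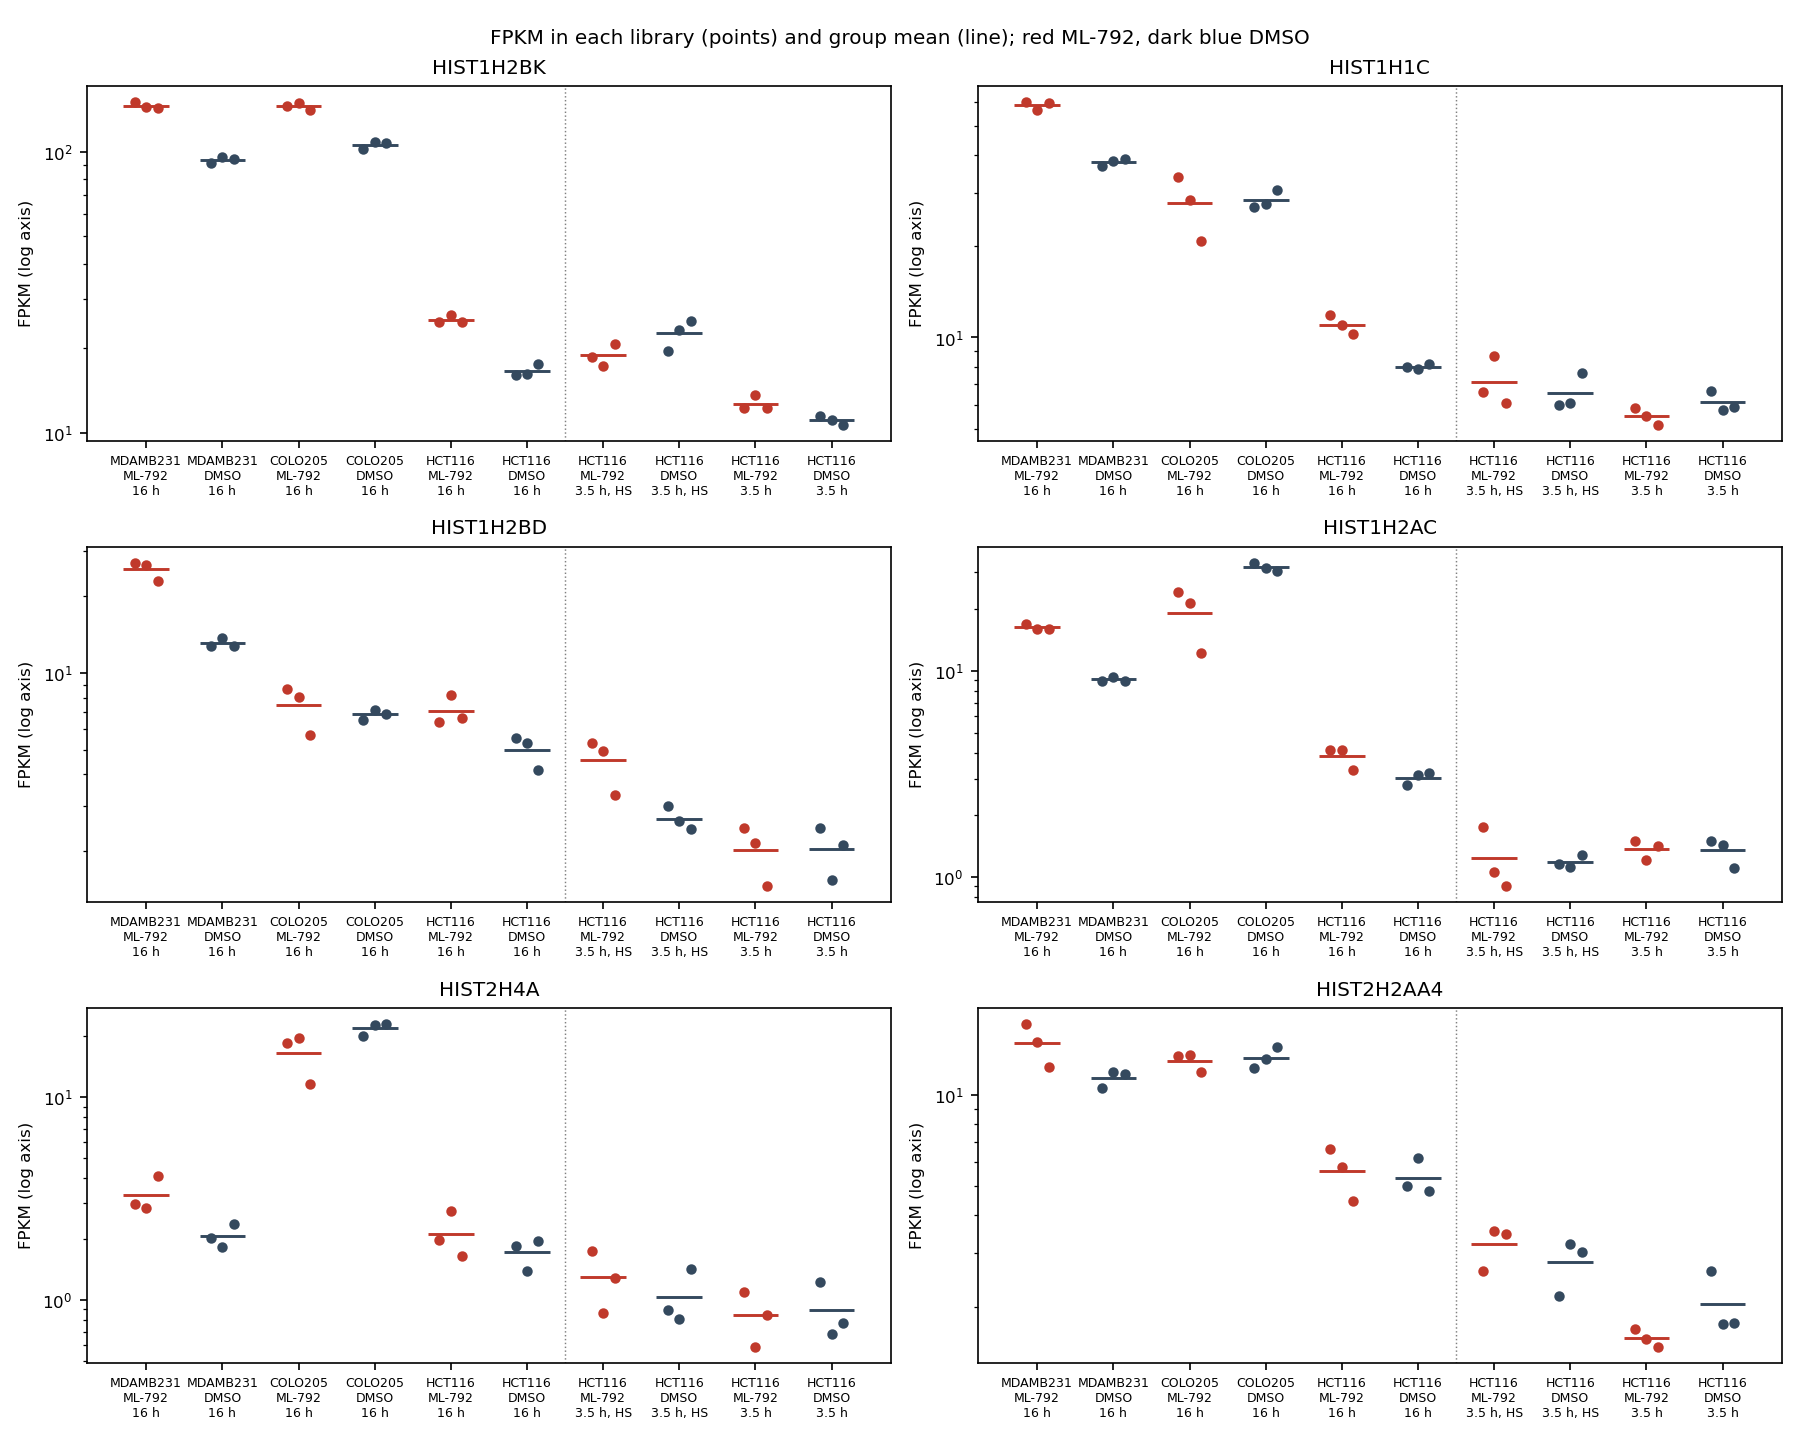
FPKM (log axis) of the 6 members with a group mean of at least 10 FPKM in every library (points), with group means (lines), ML-792 in red left of DMSO in dark blue. HIST1H2BK lies higher with ML-792 in all 3 lines at 16 h, while HIST1H2AC lies higher in MDAMB231 and lower in COLO205.

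The comparison of ML-792 with DMSO at 16 h asked what inhibition of the SUMO-activating enzyme did in each line. In MDAMB231, 7 members rose and none fell of 30 tested, against 16.9% of all 14251 genes called (8.38% higher and 8.48% lower). They were 23.3% of the members tested. Of the 30, 7 are listed at 0 in all 6 MDAMB231 libraries of 16 h and could not be called there, and they enter this share and the median. The tested members are those at 1 FPKM or more in at least 3 of 18 libraries, and calls were made in limma on log2(FPKM + 1), at 0.05 after Benjamini-Hochberg adjustment over every gene of the fit. HIST1H2BD rose by 0.91 ± 0.12 on the log2 scale (SE, limma adjusted p = 4.17e-05), HIST1H2AC by 0.78 ± 0.16 (adjusted p = 0.00281), HIST1H2BK by 0.63 ± 0.04 (adjusted p = 5.86e-09) and HIST1H1C by 0.61 ± 0.11 (adjusted p = 0.00095). The other 3 had lower levels. HIST2H2BE, an H2B gene, was at 1.72, 1.93 and 1.78 FPKM with ML-792, against 1.03, 1.07 and 1.09 FPKM with DMSO (log2 change 0.44 ± 0.10, SE, limma adjusted p = 0.00333). HIST1H4H, an H4 gene, was at 3.49, 3.70 and 2.73 FPKM with ML-792, against 2.16, 2.41 and 2.05 FPKM with DMSO (0.42 ± 0.10, adjusted p = 0.00565). HIST1H2BN, an H2B gene, was at 1.11, 1.19 and 1.07 FPKM, against 0.862, 0.520 and 0.648 FPKM with DMSO (0.35 ± 0.10, adjusted p = 0.0231). In all 7 the treatments did not overlap. Called members were picked by adjusted p, so groups apart are largely given by that choice and add no support. The same holds in the comparisons that follow. The share of all genes with groups apart was not computed. The median log2 change was 0.12 over the 30 members and 0.00 over all genes. HIST1H2BN reached 1 FPKM only in the 3 ML-792 libraries of MDAMB231, so it entered the test only through the group where it is high. Its direction and the gap between its groups are thus no result, though it stands in the count of 7. Without any 1 of these ML-792 libraries it did not pass the level filter. The call of HIST1H2BN was lost without DMSO library 2 or 3, at changes of 0.28 and 0.34.

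In COLO205, 1 member rose and 8 fell of 30 tested (30.0%), against 37% of all genes called (19.4% higher and 17.7% lower), a share under the background. Fitted on the COLO205 libraries alone, 3 members were called, HIST1H2BK, HIST3H2A and HIST2H2AC, and the falls of HIST1H1D, HIST1H2AC, HIST1H2BH, HIST1H3D and HIST2H2BE no longer passed. HIST1H2BK rose by 0.45 ± 0.04 (SE, limma adjusted p = 2.25e-07). HIST1H2AC fell by 0.76 ± 0.16 (adjusted p = 0.00162). HIST1H1D, a linker histone gene, was at 1.20, 1.17 and 0.180 FPKM with ML-792, against 1.91, 3.09 and 2.25 FPKM with DMSO (log2 change -0.93 ± 0.18, limma adjusted p = 0.000794). HIST3H2A, the H2A gene of the HIST3 cluster, was at 3.77, 3.22 and 4.59 FPKM with ML-792, against 6.17, 5.53 and 6.26 FPKM with DMSO (-0.53 ± 0.10, adjusted p = 0.000458). HIST1H3D, an H3 gene, was at 1.24, 1.71 and 0.539 FPKM with ML-792, against 2.499, 1.94 and 2.10 FPKM with DMSO (-0.59 ± 0.17, adjusted p = 0.0132). Each of these had groups that did not overlap. HIST1H1D and HIST1H3D reached 1 FPKM in 5 libraries each, all of COLO205, among them every DMSO library. Too few ML-792 libraries reached it to pass the level filter, so both were tested only through the group where they are high. Their direction and the gap between their groups are thus no result, though both stand in the count of 8. HIST2H2AC, an H2A gene, fell by 0.38 ± 0.13 (adjusted p = 0.0314), with 0.968, 0.789 and 0.986 FPKM with ML-792, against 1.49, 1.39 and 1.57 FPKM with DMSO. HIST2H2BE fell by 0.30 ± 0.10 (adjusted p = 0.0204) and HIST1H2BH by 0.25 ± 0.07 (adjusted p = 0.0102), both with overlapping groups.

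The remaining COLO205 call, HIST1H4J, has a near copy in HIST1H4K. HIST1H4J was at 2.8e-05, 0.349 and 0 FPKM with ML-792, against 2.30, 1.87 and 0.624 FPKM with DMSO (log2 change -1.17 ± 0.31, SE, limma adjusted p = 0.00861). Of the 50-base words of HIST1H4J, the length of 1 read, 81.2% are in HIST1H4K, and all words of HIST1H4K are in HIST1H4J. HIST1H4K was not called, and HIST1H4J did not pass the level filter when COLO205 was fitted alone. The sum of the pair was 1.64 ± 0.194 FPKM with ML-792 and 2.57 ± 0.280 FPKM with DMSO (SD, n = 3 each). HIST1H3D shares all of its words with another locus, HIST2H4A 97.5% with HIST2H4B, HIST2H2AA4 97.1% with HIST2H2AA3, and HIST1H2BK 74.1% with other genes (61.4% with H2BFS), so their levels depend on how the authors split such reads. HIST1H1C, HIST1H1D and HIST1H4H share none, and HIST1H2BD, HIST1H2AC, HIST3H2A and HIST2H2BE share 5.36%, 0.42%, 0.591% and 8.11%. Without ML-792 library 3, the lowest for most members, the calls of HIST1H2BH, HIST1H3D and HIST2H2BE were lost. HIST1H2BH also lost its call without DMSO library 3 (-0.20 to -0.15 over both), HIST1H3D without DMSO library 1 (-0.52 to -0.36) and HIST2H2BE without DMSO library 2 or 3 (-0.26 to -0.16). HIST2H2AC lost its call without ML-792 library 2 or any 1 DMSO library (-0.40 to -0.33). The median log2 change was -0.05 over the 30 members and 0.00 over all genes.

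In HCT116 at 16 h, 3 members rose and none fell of 30 tested, against 14.7% of all genes called (8.32% higher and 6.42% lower). HIST1H2BK rose by 0.57 ± 0.04 (SE, limma adjusted p = 3.98e-08), HIST1H2BD by 0.43 ± 0.12 (adjusted p = 0.0231) and HIST1H1C by 0.42 ± 0.11 (adjusted p = 0.0188), each with groups that did not overlap. HIST1H2BD lost its call without ML-792 library 2 or DMSO library 3 (0.32 to 0.33). HIST1H1C lost its call without ML-792 library 1 or 2 or DMSO library 2 or 3 (0.37 to 0.43). The median was 0.03 over the members and 0.00 over all genes. The balance of the background turned with scaling, from 1186 genes higher and 915 lower as deposited to 942 and 1156 after median-of-ratios scaling, and to 781 and 1424 after scaling to equal totals.

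**Figure D4:**
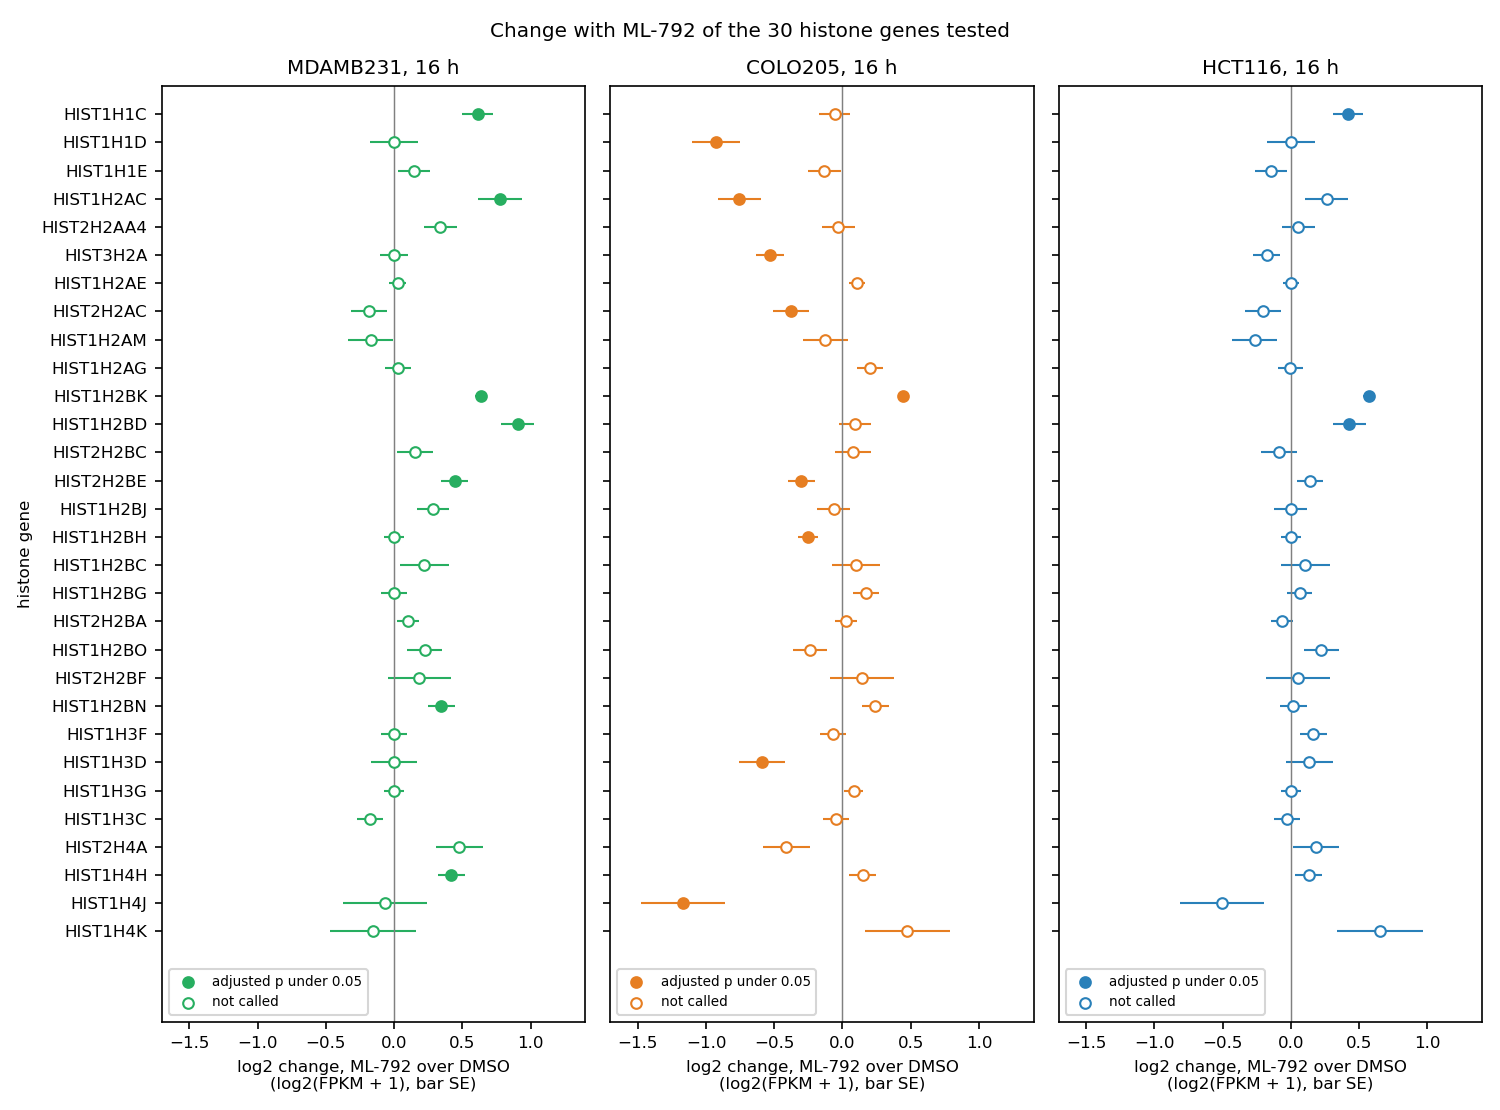
Log2 change, ML-792 minus DMSO at 16 h, with its SE, for the 30 members tested, in MDAMB231, COLO205 and HCT116 (panels). Filled points have a limma adjusted p under 0.05, with 7 filled points right of 0 in MDAMB231, 1 right and 8 left in COLO205, and 3 right in HCT116.

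The effect of ML-792 differed between lines for 8 of the 30 members in a joint F test over the 3 lines (limma), against 31% of all genes. In the direct test of MDAMB231 against COLO205, 8 members had a higher change in MDAMB231 and none a lower one, against 26% of all genes (12% higher). The difference was 1.53 ± 0.22 for HIST1H2AC (SE, limma adjusted p = 0.00015), 0.89 ± 0.24 for HIST2H4A (adjusted p = 0.0132) and 0.81 ± 0.17 for HIST1H2BD (adjusted p = 0.00207). For HIST1H1D (0.93) and HIST3H2A (0.53) the gene is listed at 0 in every MDAMB231 library, so the difference rests on COLO205 alone. HIST2H2BE, HIST1H1C and HIST1H2BK made up the rest, at 0.74, 0.67 and 0.19, and HIST1H2BK lost this call in 5 of 12 removals of 1 library (0.17 to 0.18). COLO205 against HCT116 gave 5 members with a lower change in COLO205 and none with a higher one, against 19.4% of all genes (9.66% higher and 9.75% lower). They were HIST1H2AC (-1.02), HIST1H1D (-0.93), HIST1H3D (-0.73), HIST1H1C (-0.48) and HIST2H2BE (-0.44). The last 3 of these lost the call in 10, 9 and 6 of 12 removals (-0.79 to -0.50, -0.51 to -0.42 and -0.43 to -0.30). HIST1H1D and HIST1H3D passed the level filter only with the COLO205 DMSO group, where they are high. The direction of HIST1H1D in both tests, and of HIST1H3D in this one, is thus no result. MDAMB231 against HCT116 gave no called member in limma, against 10.8% of all genes (4.93% higher and 5.84% lower), with 4 members at an unadjusted p under 0.05 and a lowest adjusted p of 0.0871. Each line's change is against its own DMSO libraries, and a line enters more than 1 of these tests.

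Members known to make a polyadenylated form, 11 of which are in the table, gave 6 higher and none lower of 10 tested in MDAMB231, 1 higher and 3 lower in COLO205, and 3 higher and none lower in HCT116, against 16.9%, 37% and 14.7% of all genes called in those lines. The COLO205 count is near its background. This list was drawn up with earlier results of these data known, so its counts are a description and no support. It holds most of the members with the highest levels, but not HIST2H2AA4, which was not called in any line at 16 h. Of genes for factors that process or degrade histone mRNA, 2 were higher and 3 lower of 22 in MDAMB231. In COLO205 6 were higher and 4 lower, and in HCT116 none were higher and 2 lower. The factor counts are not far from the same shares of all genes. SLBP, which binds the stem-loop, was at 88.0 FPKM in COLO205 with ML-792 and 42.0 FPKM with DMSO on average (log2 change 1.05 ± 0.05, SE, limma adjusted p = 9.30e-12). ERI1, an exonuclease that trims the 3′ end of histone mRNA, fell by 0.27 ± 0.05 in MDAMB231 (adjusted p = 0.00146) and by 0.36 ± 0.05 in HCT116 (adjusted p = 0.000125), where LSM10 fell by 0.20 ± 0.06 (adjusted p = 0.0485). In COLO205, LSM10, a subunit of the U7 particle that cleaves histone pre-mRNA, fell by 0.34 ± 0.06 (adjusted p = 0.000472), and NPAT, a transcriptional activator of histone genes, rose by 0.25 ± 0.06 (adjusted p = 0.00272). CSTF2 and NCBP1, which act in 3′ end cleavage and cap binding, fell by 0.18 ± 0.05 (adjusted p = 0.0194) and 0.16 ± 0.05 (adjusted p = 0.0226) in MDAMB231.

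Genes of S phase and replication moved differently among the lines. Of 25 tested, none were higher and 12 lower in MDAMB231 (median log2 change -0.17). In COLO205 13 were higher and 1 lower (0.18), and in HCT116 1 was higher and 2 lower (-0.01). Of all genes, 16.9%, 37% and 14.7% were called in these lines in that order, and the HCT116 count is under its share. In the test of the difference, 19 of 25 had a lower change in MDAMB231 than in COLO205 and none a higher one. In that test 26% of all genes were called (14% lower). The replicative helicase genes MCM5 and MCM6 fell by 0.43 ± 0.06 (limma adjusted p = 5.16e-05) and 0.37 ± 0.05 (adjusted p = 6.83e-05) in MDAMB231, and CDC45, another helicase component, fell by 0.23 ± 0.04 (adjusted p = 0.00104). In COLO205 CCNE2, a G1/S cyclin, rose by 0.58 ± 0.06 (adjusted p = 2.07e-06), and RRM2, a ribonucleotide reductase subunit, rose by 0.36 ± 0.04 (adjusted p = 3.40e-06), as did the helicase gene MCM7, by 0.45 ± 0.05 (adjusted p = 5.73e-06). In HCT116 RRM2 rose by 0.93 ± 0.04 (adjusted p = 6.01e-11), while the transcription factor gene E2F1 fell by 0.37 ± 0.08 (adjusted p = 0.00424) and MCM5 by 0.24 ± 0.06 (adjusted p = 0.0104). The part of the cell cycle in the histone values was not tested, and in bulk RNA fewer cells with a transcript and less of it per cell cannot be told apart.

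Histone variant genes outside the clusters gave 2 higher and 1 lower of 11 in MDAMB231, 3 and 2 in COLO205, and 2 and 1 in HCT116. Of all genes, 16.9% were called in MDAMB231, 37% in COLO205 and 14.7% in HCT116. For so few genes the variant counts are not far above these shares. CENPA, the centromeric H3 variant, rose in all 3 lines, by 0.29 ± 0.05 in MDAMB231 (limma adjusted p = 0.000357), 0.65 ± 0.05 in COLO205 (adjusted p = 1.32e-08) and 0.55 ± 0.05 in HCT116 (adjusted p = 4.21e-07). H2AFV, a gene of the H2A.Z variant, rose by 0.12 ± 0.04, 0.25 ± 0.04 and 0.18 ± 0.04 in the same order of lines (adjusted p = 0.0422, 0.000102 and 0.00404). H2AFY, a macroH2A gene, fell by 0.12 ± 0.03 in MDAMB231 (adjusted p = 0.02002), and H2AFY2, another macroH2A gene, fell by 0.21 ± 0.05 in HCT116 (adjusted p = 0.00662). H3F3B, an H3.3 gene, rose by 0.27 ± 0.09 in COLO205 (adjusted p = 0.0263). Of 19 histone chaperone genes, none were higher and 4 lower in MDAMB231. In COLO205 6 were higher and 3 lower, and in HCT116 3 were higher and 1 lower. The chaperone counts are near the same shares of all genes. SSRP1, a subunit of the FACT chaperone, fell by 0.10 ± 0.03 in MDAMB231 (adjusted p = 0.0272) and by 0.26 ± 0.03 in COLO205 (adjusted p = 5.21e-06). CHAF1B, a subunit of the chaperone CAF-1, fell by 0.21 ± 0.06 (adjusted p = 0.0184) and UBN1, of the HIRA complex, by 0.13 ± 0.04 (adjusted p = 0.0345) in MDAMB231. In COLO205 IPO4, an importer of histones, fell by 0.54 ± 0.07 (adjusted p = 6.91e-06) and HIRA by 0.27 ± 0.05 (adjusted p = 0.000240). In HCT116 NAP1L1 rose by 0.18 ± 0.05 (adjusted p = 0.0128), ASF1A by 0.22 ± 0.06 (adjusted p = 0.0134) and HJURP by 0.17 ± 0.05 (adjusted p = 0.0230).

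RNAs that carry no poly(A) tail were taken as a rough sign of untailed RNA carried along, a use that was not checked. The 478 small nuclear, nucleolar and similar RNAs in the table summed to 22.5 ± 2.25 FPKM in MDAMB231 with ML-792 and 19.2 ± 1.80 FPKM with DMSO (SD, n = 3 each). They summed to 37.2 ± 5.23 FPKM in COLO205 with ML-792 and 29.4 ± 3.04 FPKM with DMSO, and to 47.4 ± 3.42 FPKM in HCT116 of 16 h with ML-792 and 38.9 ± 3.27 FPKM with DMSO. Their mean was higher with ML-792 in each line. Their part in the histone values was not tested.

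At 3.5 h without heat shock, no member was called in HCT116 by limma. Of 9 members tested, none passed an unadjusted p under 0.05 and the lowest adjusted p was 0.726, against 1.21% of all 12191 genes called (1.02% higher). HIST1H2BK was at 12.3, 13.7 and 12.2 FPKM with ML-792, against 11.5, 11.1 and 10.7 FPKM with DMSO. HIST1H1C was at 5.85, 5.52 and 5.15 FPKM with ML-792, against 6.64, 5.75 and 5.90 FPKM with DMSO. HIST1H2BD was at 2.46, 2.15 and 1.46 FPKM with ML-792, against 2.46, 1.55 and 2.12 FPKM with DMSO. HIST1H2BK was higher in every ML-792 library but did not pass the test, and the other pair overlapped. HIST1H2AC was at 1.496, 1.21 and 1.41 FPKM with ML-792, against 1.501, 1.43 and 1.11 FPKM with DMSO, and HIST2H2AA4 at 1.68, 1.56 and 1.48 FPKM, against 2.61, 1.75 and 1.77 FPKM with DMSO. HIST2H2AA4 was thus lower in every ML-792 library and did not pass the test either. HIST2H4A was under 1 FPKM on average in both groups, at 0.848 and 0.894 FPKM.

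The change with ML-792 was higher at 16 h than at 3.5 h in HCT116 for 2 of 10 members tested and lower for none, against 2.4% of all 12462 genes (1.12% higher). They were HIST1H1C, with a difference in log2 change of 0.54 ± 0.09 (SE, limma adjusted p = 0.00354), and HIST1H2BK, with 0.39 ± 0.07 (adjusted p = 0.0112). Both kept the call in every removal of 1 library. The libraries of each time form separate sets, so other differences between the sets cannot be told apart from the time itself.

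HIST1H2BK was higher in heat-shocked than in unheated HCT116 with either agent. It was at 18.6, 17.2 and 20.8 FPKM in heat-shocked ML-792 cells, against 12.3, 13.7 and 12.2 FPKM in unheated ML-792 cells. In heat-shocked DMSO cells it was at 19.6, 23.3 and 24.9 FPKM, against 11.5, 11.1 and 10.7 FPKM in unheated DMSO cells. Every heated library was above every unheated one. With DMSO it was the single member called, higher by 0.96 ± 0.09 (SE, limma adjusted p = 1.79e-06), 11.1% of 9 tested against 49.5% of all genes (28.9% higher and 20.6% lower). With ML-792, 5 of 9 members rose and none fell (55.6%), against 61.7% of all genes (39.3% higher and 22.3% lower), so neither total exceeds the background. After either scaling given in the next paragraphs, 3 of the 9 were called with ML-792. The median log2 change was 0.31 over the members and 0.10 over all genes with ML-792, and 0.11 and 0.05 with DMSO. The library names of heated and of unheated cells form separate series. Other differences between these sets thus cannot be told apart from heat shock, here and in the heated against unheated comparisons that follow.

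With ML-792, HIST1H2BD rose under heat shock by 0.87 ± 0.16 (SE, limma adjusted p = 0.000496), at 5.33, 4.96 and 3.32 FPKM in heated cells, against 2.46, 2.15 and 1.46 FPKM in unheated cells. HIST2H2AA4 rose by 0.71 ± 0.13 (adjusted p = 0.000505), at 2.63, 3.55 and 3.47 FPKM, against 1.68, 1.56 and 1.48 FPKM in unheated cells. HIST1H2BK rose by 0.53 ± 0.09 (adjusted p = 0.00022). These 3 did not overlap between heated and unheated libraries, which their choice by adjusted p largely gives. HIST3H2A (0.33 ± 0.13, adjusted p = 0.0391, overlapping groups) and HIST1H1C (0.31 ± 0.11, adjusted p = 0.0322) lost their calls when values were scaled by median of ratios, to 0.24 and 0.17, and to 0.16 and 0.05 with equal totals. HIST1H1C was at 6.58, 8.69 and 6.07 FPKM in heated ML-792 cells, against 5.85, 5.52 and 5.15 FPKM in unheated ones, and lost its call in 3 removals of 1 library (0.17 to 0.31). HIST3H2A lost it in 5 (0.19 to 0.35). In DMSO, HIST1H2BD was at 2.99, 2.61 and 2.43 FPKM in heated cells, against 2.46, 1.55 and 2.12 FPKM in unheated cells, and did not pass the test. HIST2H2AA4 was at 2.17, 3.21 and 3.03 FPKM in heated DMSO cells, against 2.61, 1.75 and 1.77 FPKM in unheated ones, and HIST1H1C was at 5.98, 6.09 and 7.65 FPKM, against 6.64, 5.75 and 5.90 FPKM. HIST1H2AC was at 1.75, 1.06 and 0.908 FPKM in heated ML-792 cells and 1.16, 1.12 and 1.28 FPKM in heated DMSO cells, overlapping the unheated libraries of the same agent. HIST2H4A averaged 1.30 FPKM in heated ML-792 cells and 1.04 FPKM in heated DMSO cells.

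Within heat-shocked cells, ML-792 was compared with DMSO. HIST1H2BD was higher with ML-792 by 0.57 ± 0.16 (SE, limma adjusted p = 0.0181) and HIST1H2BK lower by -0.25 ± 0.09 (adjusted p = 0.0443, overlapping groups), 2 of 9 members (22.2%) against 33.5% of all genes (18.4% higher and 15.1% lower). HIST1H2BD lost its call without heated DMSO library 2 or heated ML-792 library 1 or 2 (0.47 to 0.56). HIST1H2BK lost it without heated DMSO library 2 or 3 or heated ML-792 library 1 or 2 (-0.24 to -0.18). In the test of whether heat shock acted differently with ML-792, no member was called by limma, against 6.41% of all genes (2.48% higher and 3.93% lower). At an unadjusted p under 0.05 there were 2, HIST1H2BK with -0.43 ± 0.12 (adjusted p = 0.0531) and HIST1H2BD with 0.58 (adjusted p = 0.108). The heat shock comparisons share groups with these, so they are not independent of one another.

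The scale of the heat-shocked libraries bears on all of these values. As deposited, 3526 genes were higher and 2507 lower with heat shock in DMSO, against 2582 and 3356 after median-of-ratios scaling, and 1483 and 5187 after scaling to equal totals. With ML-792 the counts were 4796 and 2721 as deposited, 2996 and 4015, and 1748 and 5474. For ML-792 against DMSO under heat shock they were 2241 and 1842, 1167 and 2493, and 977 and 2003. For the difference of the heat shock effects they were 302 and 479, 195 and 836, and 37 and 210. The median of all genes moved by -0.22 in DMSO with equal totals, and by -0.14 (median of ratios) and -0.27 (equal totals) with ML-792, while HIST1H2BK kept its rise with heat shock under each. RNAs without a tail summed to 65.1 ± 11.4 FPKM with heat shock in ML-792, 68.0 ± 15.9 FPKM with heat shock in DMSO, 55.5 ± 10.4 FPKM in unheated ML-792 cells and 62.0 ± 9.78 FPKM in unheated DMSO cells (SD, n = 3 each). The means of RMRP and RPPH1, the RNA parts of RNase MRP and RNase P, differed more than the sum did. RMRP averaged 8.69 ± 3.96 FPKM in heated and 2.85 ± 3.18 FPKM in unheated ML-792 cells, and 15.9 ± 5.84 FPKM in heated and 0.987 ± 0.179 FPKM in unheated DMSO cells (SD, n = 3 each). RPPH1 averaged 2.65 ± 1.19 FPKM in heated and 0.933 ± 0.494 FPKM in unheated ML-792 cells, and 5.23 ± 2.79 FPKM in heated and 0.442 ± 0.0406 FPKM in unheated DMSO cells (SD, n = 3 each). Their part in the heat shock values was not tested.

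The factors that process or degrade histone mRNA gave 10 higher and 6 lower of 22 with heat shock in ML-792, and 6 and 6 in DMSO. Of all genes, 61.7% were called with heat shock in ML-792 (39.3% higher and 22.3% lower). In DMSO 49.5% were called (28.9% higher and 20.6% lower). ZNF473, a zinc finger protein of the U7 processing machinery, rose by 1.65 ± 0.06 in ML-792 (limma adjusted p = 3.46e-10) and by 1.42 ± 0.06 in DMSO (adjusted p = 1.67e-09). NPAT fell by 0.97 ± 0.13 in ML-792 (adjusted p = 4.94e-05), and ERI1 fell by 0.54 ± 0.06 (adjusted p = 4.75e-06). In DMSO ZCCHC6, a uridylyltransferase that acts on histone mRNA, rose by 0.54 ± 0.09 (adjusted p = 0.000296), and LSM11, which pairs with LSM10 in the U7 particle, fell by 0.56 ± 0.09 (adjusted p = 0.000314). S phase genes gave 11 higher and 5 lower of 25 in ML-792, and 6 and 4 in DMSO. Chaperones gave 4 and 3 of 19 in ML-792, and 5 and 5 in DMSO, and histone variant genes 2 and 2 of 11 with either agent. The chaperone and variant counts in ML-792, and the S phase and variant counts in DMSO, are under the shares of all genes. The other list counts are near or somewhat above them. HJURP, the chaperone that loads CENPA, fell by 0.83 ± 0.07 in ML-792 (adjusted p = 1.47e-06) and by 0.85 ± 0.07 in DMSO (adjusted p = 1.32e-06), and CENPA itself fell by 0.44 ± 0.06 (adjusted p = 4.81e-05) and 0.36 ± 0.06 (adjusted p = 0.000299). H1F0, a linker histone variant gene, fell by 0.32 ± 0.07 in ML-792 (adjusted p = 0.00146) and by 0.51 ± 0.07 in DMSO (adjusted p = 6.73e-05).

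H2AFY rose with heat shock in ML-792 by 0.36 ± 0.06 (limma adjusted p = 0.000397), and H3F3A, an H3.3 gene, rose in DMSO by 0.27 ± 0.07 (adjusted p = 0.00912). The chaperone gene ASF1B rose by 0.36 ± 0.06 in ML-792 (adjusted p = 0.000253) and by 0.24 ± 0.06 in DMSO (adjusted p = 0.00579). SSRP1 rose by 0.37 ± 0.06 in ML-792 (adjusted p = 0.000330), and ANP32E, a chaperone of H2A.Z, fell by 0.43 ± 0.07 in DMSO (adjusted p = 0.000155). Of the S phase genes, the cyclin gene CCNA2 fell by 0.88 ± 0.07 in ML-792 (adjusted p = 6.76e-07) and by 0.49 ± 0.07 in DMSO (adjusted p = 0.000140). CDC6, which loads the replicative helicase, rose by 0.50 ± 0.05 in ML-792 (adjusted p = 3.62e-06) and by 0.75 ± 0.05 in DMSO (adjusted p = 9.81e-08), and GINS3 rose by 0.54 ± 0.06 (adjusted p = 1.09e-05) and 0.55 ± 0.06 (adjusted p = 1.11e-05).

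With DMSO at 16 h, 22 of 30 members were higher and none lower in COLO205 than in HCT116 (73.3%), against 84.9% of all genes (39.4% higher and 45.5% lower). MDAMB231 against HCT116 gave 17 higher and 3 lower (66.7%), against 83.6% (38.1% higher and 45.5% lower). MDAMB231 against COLO205 gave 6 higher and 15 lower (70.0%), against 86.4% (41.9% higher and 44.5% lower). The total count was thus under the background in each pair. Of the 22 members higher in COLO205, 6 reached 1 FPKM in COLO205 libraries alone at 16 h, HIST1H2BH and HIST1H1D among them. They entered the test only through the line where they are high, so their direction is no result, nor is the count over the 22. In the same way, 4 of the 30 members reached 1 FPKM in MDAMB231 libraries alone at 16 h, HIST1H1E and HIST1H3C among them. In HCT116, 16 of the 30 stayed under 1 FPKM in all libraries of 16 h. The counts by direction of MDAMB231 against either line are thus no result either. The balance of all genes turned with scaling in each pair. It was 5619 higher and 6482 lower as deposited in COLO205 against HCT116 and 6065 and 5993 after median-of-ratios scaling. In MDAMB231 against HCT116 it was 5425 and 6484 as deposited and 6162 and 5745 after median-of-ratios scaling, with a median shift of 0.11. In MDAMB231 against COLO205 it was 5973 and 6338 as deposited and 6576 and 5674 with equal totals.

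HIST2H4A was higher in COLO205 than in HCT116 by 3.07 on the log2 scale, HIST1H2AC by 3.03 and HIST1H2BK by 2.60 (limma, all called). HIST1H2BJ, HIST2H2BE and HIST1H1C followed at 2.13, 1.98 and 1.71, and HIST1H2BH is listed at 0 in all HCT116 libraries. HIST1H1D (1.74) reached 1 FPKM in COLO205 alone, so its direction is no result. In MDAMB231 against HCT116, HIST1H2BK was higher by 2.42, HIST1H1C by 2.11, HIST1H4H by 1.58, HIST1H2AC by 1.32 and HIST1H2BD by 1.24. Linker histone HIST1H1C was at 37.9 ± 1.05 FPKM in MDAMB231 with DMSO, 28.5 ± 1.97 FPKM in COLO205 and 8.00 ± 0.159 FPKM in HCT116 (SD, n = 3 each). HIST1H2BK was at 93.6 ± 2.26 FPKM in MDAMB231, 106 ± 3.03 FPKM in COLO205 and 16.7 ± 0.843 FPKM in HCT116 with DMSO (SD, n = 3 each). The MDAMB231 and COLO205 levels differed by -0.18 on the log2 scale, a call lost with equal totals. HIST2H4A was lower in MDAMB231 than in COLO205 by -2.90, HIST1H2AC by -1.705 and HIST2H2BE by -1.66, while HIST1H2BD (0.84) and HIST1H1C (0.40) were higher. HIST1H1E (0.76) and HIST1H3C (0.76) were also called higher. Both reached 1 FPKM in MDAMB231 alone, so their direction is no result. HIST2H2BA, whose GENCODE transcripts include a pseudogene class, averaged 2.08 FPKM with ML-792 and 1.86 FPKM with DMSO in MDAMB231 and did not exceed 0.144 FPKM in any library of the other lines.

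In MDAMB231, 15 consecutive HIST1 members on chromosome 6 were at or near 0. They run from HIST1H4D to HIST1H2BI, with HIST1H3D, HIST1H2AD, HIST1H2BF, HIST1H4E, HIST1H2BG, HIST1H2AE, HIST1H3E, HIST1H1D, HIST1H4F, HIST1H4G, HIST1H3F, HIST1H2BH and HIST1H3G between them in that order. In all 6 MDAMB231 libraries 14 of the 15 were listed at 0, and the highest value was 0.0539 FPKM, of HIST1H2AE. In COLO205, 12 of the 15 were above 0 in some library and 7 at 1 FPKM or more, and in HCT116, 9 were above 0 in some of 18 libraries and 1 at 1 FPKM or more. Of the 40 other HIST1 members, 7 were listed at 0 in all MDAMB231 libraries. Of 6 flanking genes that are no histone genes, SLC17A2 was listed at 0 in all MDAMB231 libraries. HFE was at 10.6 to 13.8 FPKM, TRIM38 at 6.66 to 7.87 FPKM, BTN3A2 at 11.3 to 18.5 FPKM, BTN2A2 at 10.5 to 12.7 FPKM and BTN3A1 at 10.5 to 14.8 FPKM. The run was singled out after its values were seen, so it carries no test. HIST3H2A and HIST3H2BB, which lie in the HIST3 cluster on chromosome 1, were also listed at 0 in all MDAMB231 libraries, while HIST3H2A was at 5.99 ± 0.397 FPKM in COLO205 and 4.05 ± 0.223 FPKM in HCT116 with DMSO (SD, n = 3 each).

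**Figure D5:**
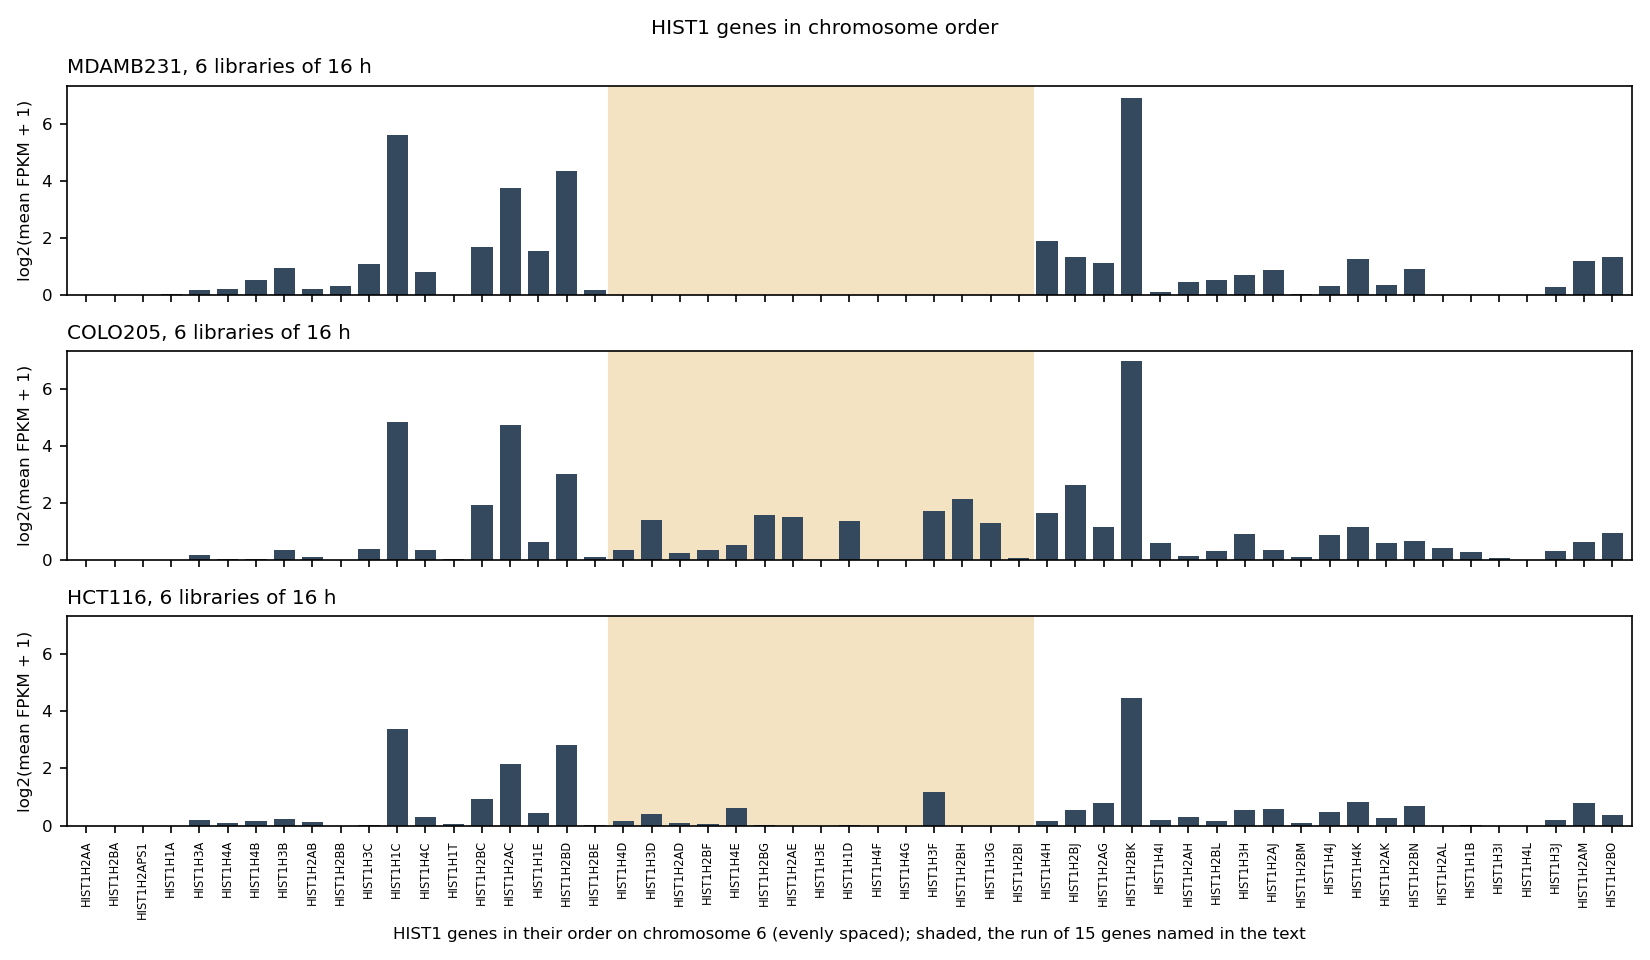
Mean level over the 6 libraries of 16 h, as log2(mean FPKM + 1), of the 55 HIST1 members in the order of their starts on chromosome 6. The panels are MDAMB231, COLO205 and HCT116, with the run of 15 members shaded. The shaded stretch is empty in MDAMB231 but for HIST1H2AE, with a mean of 0.00898 FPKM. It holds members above 1 FPKM in COLO205, and HIST1H3F at a mean of 1.27 FPKM in HCT116.

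HIST1H2BC and HIST1H2AC, 1 of the 11 pairs with overlapping upstream windows, start in opposite directions. The pair was chosen after its values were seen. In COLO205 HIST1H2BC averaged 2.99 FPKM with ML-792 and 2.69 FPKM with DMSO, and HIST1H2AC averaged 19.2 and 31.8 FPKM. In MDAMB231 HIST1H2BC averaged 2.52 FPKM with ML-792 and 2.01 FPKM with DMSO, and HIST1H2AC averaged 16.2 and 9.07 FPKM. HIST1H2BC was not called in either line. Whether the changes within a pair differ from each other was not tested.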

How the data were processed

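The authors deposited FPKM per gene in 1 table of 30373 genes by 30 libraries, 10 groups of 3. Per the labels' protocols, RNA came from biological triplicates, libraries from the TruSeq Stranded mRNA kit and reads were paired, 50 bases long. The submitters' processing notes name DESeq2 1.10.1 with no stated role. Which aligner, build and annotation were used is not given in the sources used here. Totals of counts were not used here, so depth was estimated from the steps of low values in 1414 single-transcript genes over 1500 bases, on the assumption that 1 step is 1 fragment. Intervals of counts are therefore not given.

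Tests used limma 3.58.1 in R 4.3.3 (trend and robust) on log2(FPKM + 1), which understates the changes of low genes, over genes that 3 or more libraries of a fit held at 1 FPKM or above. The 18 libraries of 16 h, the 12 of 3.5 h and the 12 unheated HCT116 libraries were fitted separately (14251, 12191 and 12462 genes). Calls were made at 0.05 after Benjamini-Hochberg adjustment over every gene of a fit. The script was tested on simulated data. Alternatives changed the pseudocount (0.1 and 5), the filter (none and 5 FPKM), the scaling, the variance model and the groups fitted, and left out each library. Members, lists and the rule for named genes were chosen with earlier results of these data known. Named members are the 6 with a group mean of 10 FPKM or more and the called members by size of change. Of each list, the called genes among the 3 with the smallest adjusted p are named for ML-792 in each line at 16 h and for heat shock. Python 3.11.15 was used for sequences, counts and figures.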

Additional observations from a re-analysis of the deposited data

Results flagged for a closer look

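Between times in HCT116, the change with ML-792 was higher at 16 h than at 3.5 h for HIST1H1C by 0.54 and for HIST1H2BK by 0.39 on the log2 scale. These values and those that follow are differences between log2 changes from interaction terms in limma with a Benjamini-Hochberg adjusted p under 0.05.

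Between COLO205 and HCT116, the change with ML-792 at 16 h was lower in COLO205 for HIST1H2AC (-1.02), HIST1H1D (-0.93), HIST1H3D (-0.73), HIST1H1C (-0.48) and HIST2H2BE (-0.44). HIST1H1D was under 0.05 FPKM in all 16 h libraries of HCT116, so its difference is that of COLO205. HIST1H1D and HIST1H3D passed the level filter only with the COLO205 DMSO group, so their direction is no result, here and in the next paragraph.

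Between MDAMB231 and COLO205, the change was higher in MDAMB231 for HIST1H2AC (1.53), HIST1H1D (0.93), HIST2H4A (0.89), HIST1H2BD (0.81), HIST2H2BE (0.74), HIST1H1C (0.67), HIST3H2A (0.53) and HIST1H2BK (0.19). HIST1H2AC and HIST2H2BE are the members called in both lines with opposite directions, higher in MDAMB231 and lower in COLO205. Groups of 3 libraries are too small to test for a library that stands apart.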

How the results depend on the processing

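Direction held for every called member under every alternative in which it was tested. Members not called in the main fit were not followed. Of the values of called members, 735 kept the call over changes of processing and 37 lost it. Over removals of 1 library, 636 kept it and 73 lost it. Members near 1 FPKM rest on few fragments, and depth was an estimate. No paired analysis was possible because replicates are not numbered in the labels. The causes of the differences that follow were not tested, except that a filter at 5 FPKM tests fewer members and no filter tests more. With that filter the counts of called members were 3 for ML-792 in COLO205, 4 in MDAMB231 and 1 in heated HCT116, 9 for COLO205 against HCT116, 8 for MDAMB231 against HCT116 and against COLO205, 2 for heat shock in ML-792, 1 for its difference from DMSO and 2 for the effect in COLO205 against HCT116. Without a filter they were 36 for MDAMB231 against COLO205, 2 for heat shock in DMSO and 2 for the effect in COLO205 against HCT116. That last count was 3 with equal totals and 1 when fitted on its own groups. The effect in MDAMB231 against HCT116 gave 1 member with a pseudocount of 5 and 3 on its own groups. Heat shock in ML-792 gave 3 members with either scaling or on its own groups, and its difference from DMSO gave 1 with median of ratios. On its own groups, ML-792 gave 3 members in COLO205 and 0 in heated HCT116. The number of members reaching the level was 10 at 5 FPKM.

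HIST1H3D in COLO205 (-0.97), and HIST1H4H (0.55) and HIST1H2BN (0.68) in MDAMB231, lost their calls with a pseudocount of 0.1. HIST2H2AC in COLO205 lost its call with a pseudocount of 5, and also without a filter, as did HIST1H2BK with ML-792 under heat shock, and HIST3H2A and HIST1H1C with heat shock in ML-792. On their own groups, HIST1H1D, HIST1H2AC, HIST1H2BH, HIST1H3D and HIST2H2BE lost their calls in COLO205, as did HIST1H2BD and HIST1H2BK with ML-792 under heat shock, and HIST3H2A and HIST1H1C with heat shock in ML-792.

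Summed FPKM with median-of-ratios and with equal totals was 318 and 342 in MDAMB231 with ML-792, 210.1 and 229 with DMSO, 285 and 287 in COLO205 with DMSO, and 47.9 and 41.1 in heated ML-792 cells. With equal totals it was 65.0 in HCT116 with DMSO at 16 h and 42.2 in heated DMSO cells.

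Leaving out 1 library at a time, the counts of called members ran from 6 to 8 for ML-792 in MDAMB231, 6 to 9 in COLO205, 1 to 3 in HCT116 at 16 h, 0 to 0 at 3.5 h and 0 to 2 under heat shock. They ran from 3 to 6 for heat shock in ML-792, 1 to 2 in DMSO and 0 to 2 for their difference, and 2 to 2 for 16 h against 3.5 h. For the effect between lines they ran from 7 to 12 (MDAMB231 against COLO205), 0 to 1 (MDAMB231 against HCT116) and 2 to 5 (COLO205 against HCT116). For the lines with DMSO they ran from 17 to 20 (MDAMB231 against HCT116), 20 to 22 (MDAMB231 against COLO205) and 22 to 24 (COLO205 against HCT116). The HCT116 count at 16 h was 1 without ML-792 library 2 or DMSO library 3. The effect in COLO205 against HCT116 counted 2 without HCT116 ML-792 library 1 or 2, HCT116 DMSO library 2 or COLO205 DMSO library 3, and 3 without HCT116 DMSO library 1 or COLO205 DMSO library 2. That of MDAMB231 against HCT116 was 1 without HCT116 ML-792 library 2 or DMSO library 3. The count for heat shock in DMSO was 2 without heated or unheated DMSO library 1, and in ML-792 it was 3 without unheated ML-792 library 2 or 3. ML-792 under heat shock gave 0 without heated DMSO or ML-792 library 2, and 1 without heated DMSO library 3 or ML-792 library 1. The difference of heat shock effects gave 1 without heated DMSO library 1 and 2 without heated ML-792 library 3.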
